A study of Mus musculus with 12 samples.

Results

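Mx1, Ifih1, Bst2, Ifit2, Ifitm1, Ifi35, Ifi204 and Irgm1 are interferon-stimulated genes with antiviral roles. They are 8 of the 547 endogenous genes on the NanoString mouse Immunology code set, and were found by probe name in the counts of all 12 libraries. The study models cutaneous lupus, and the question behind the comparisons was how injected T cells change once they reach the skin. Of the libraries, 3 were made at flare, 3 at first lesions, and 3 from Th2, 2 from Th1 and 1 from Th0 cultures.

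Donors were BALB/c DO11 mice, or Rag-/- DO11 mice crossed to the 4get reporter, and which cells came from which is not stated. All T cells carried the transgenic DO11.10 receptor for an ovalbumin peptide. Flare libraries were enriched T cells from lesional skin of TLR9KO Ii-TGO mice that had healed off doxycycline chow and were then given it again (about week 12), namely mice 1 and 2 of experiment 1 and mouse 12 of experiment 2. First libraries came from such mice at the first lesions (about week 4), mice 1, 3 and 6 of experiment 1. Skin scores were 1, 0.5 and 2 at flare and 1, 3 and 3 at first lesions. These recipients lacked TLR9, were sublethally irradiated, received Th2 cells, and expressed the ovalbumin fusion protein from a transactivator driven by the invariant chain promoter while on doxycycline, so antigen was made by cells with active MHC class II genes. Cultures were started with irradiated spleen cells carrying the ovalbumin peptide and ran for 10 days with IL-2. Before harvest all were activated again with such spleen cells, without renewed skewing, and were taken at the peak of that activation. Th2 cells had received IL-4 with antibodies to IFNγ and IL-12p40, Th1 cells IFNγ with an antibody to IL-4, and Th0 cells no skewing agent. The Th2 cultures were 1 of experiment 1 and a male and a female culture of experiment 2, and the Th1 cultures were 1 of each experiment. The labels do not say which culture went into which mouse, and the ages of the mice were not given in the sources used here.

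Interferons bind receptors on the cell surface, and the kinases Jak1, Jak2 and Tyk2 then activate STAT proteins. Type I and type III interferons act mainly through a complex that includes Irf9 and binds the interferon-stimulated response element in DNA, whereas IFNγ acts mainly on the gamma-activated sequence. A type I interferon signature is a known feature of lupus skin. Among the 8 genes, Ifih1 encodes MDA5, a sensor of double-stranded RNA, and Ifi204 is a member of the p200 family that binds DNA. Mx1 is a dynamin-like GTPase that blocks influenza and related viruses, and many inbred mouse strains, BALB/c among them, carry a defective Mx1 allele. Bst2 (tetherin) holds budding viruses at the cell surface, Ifit2 acts on viral RNA and its translation, and Ifitm1 hinders viral entry. Irgm1 is an immunity-related GTPase that is strongly induced by IFNγ, and Ifi35 is a leucine zipper protein induced by interferons.

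Promoter windows of RefSeq, which run from 250 bases before to 50 bases after a gene's start on mouse build GRCm38.p6, were held for 6 of the 8 genes, with no entry for Mx1 and Ifi204. They were searched on both strands for GAAA followed by any 2 bases and a further GAAA, a core of the interferon-stimulated response element. It occurred in 3 of the 6, which are shown because they hold the element, and their measured patterns differ. The windows lie at chr2:62646206-62646505 for Ifih1, chr8:71537423-71537722 for Bst2 and chr11:48871371-48871670 for Irgm1, each on the minus strand and each written in the direction of the gene. Capitals mark the matches.
Ifih1: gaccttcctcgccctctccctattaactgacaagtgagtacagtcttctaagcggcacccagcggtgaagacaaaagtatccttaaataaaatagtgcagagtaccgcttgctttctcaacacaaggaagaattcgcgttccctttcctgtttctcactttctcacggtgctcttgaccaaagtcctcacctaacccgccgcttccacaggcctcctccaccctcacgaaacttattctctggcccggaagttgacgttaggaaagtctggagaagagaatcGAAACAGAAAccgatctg
Bst2: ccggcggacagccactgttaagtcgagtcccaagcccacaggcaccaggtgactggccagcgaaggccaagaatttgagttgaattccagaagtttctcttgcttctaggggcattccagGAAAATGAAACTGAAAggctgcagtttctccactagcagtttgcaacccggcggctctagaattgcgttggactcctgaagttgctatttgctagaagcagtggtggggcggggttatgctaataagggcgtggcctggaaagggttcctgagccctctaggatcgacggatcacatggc
Irgm1: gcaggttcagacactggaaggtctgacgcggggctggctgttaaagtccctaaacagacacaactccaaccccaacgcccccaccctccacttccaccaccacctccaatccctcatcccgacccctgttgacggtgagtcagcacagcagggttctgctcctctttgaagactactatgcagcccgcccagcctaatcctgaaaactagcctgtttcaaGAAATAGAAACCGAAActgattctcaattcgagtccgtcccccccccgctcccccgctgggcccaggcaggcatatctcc
The match in Ifih1 was GAAACAGAAA, 32 bases past the start. Bst2 held a pair of overlapping matches, GAAAATGAAA and GAAACTGAAA, which began 130 and 124 bases before the start. Irgm1 held the overlapping GAAATAGAAA and GAAACCGAAA, which began 30 and 24 bases before it. The windows of Ifit2 (2 entries), Ifitm1 and Ifi35 held no match, which says only that these letters are not in these windows. Of all 32851 windows 3.44% held the motif, and of the 407 panel genes with a window 31 did (7.62%). TTCNNNGAA, the gamma-activated sequence, occurred in the windows of Bst2, Ifit2 (1 of its 2 entries) and Ifi35. It was in 8.3% of all windows and in 62 of the 407 panel genes with a window (15.2%). In Bst2 it overlapped the first match above.

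The skin libraries were shallow and held few T cell transcripts. Endogenous counts summed to 25925 to 55349 at flare and 27347 to 131229 at first lesions, against 417917 to 481131 in cultures. Counts were scaled by 7 housekeeping genes, and the detection limit was the mean plus 2 SDs of a library's 8 negative control probes. In scaled counts that limit was 66.0 to 159 at flare and 35.7 to 242 at first lesions, against 3.87 to 8.41 in cultures, and the mean of the negative controls was 14.7 to 136 in skin, against 1.74 to 4.79 in cultures. Of 10 T cell markers, 1 to 4 at flare and 0 to 3 at first lesions lay above the limit, against 10 in every culture, with summed levels of 270 to 1169 in skin and 6262 to 11879 in cultures. Cd3e was above the limit in 0 of 6 skin libraries, Cd3d and Cd4 in 1 each, Cd247 in 2 and Cd2 in 5. Of 9 myeloid markers 5 to 7 lay above it in skin and 3 to 5 in cultures, with sums of 2373 to 7993 against 67.4 to 203, and Cd14, Csf1r and Tyrobp were above it in 6 of 6 skin libraries. The labelled T cells are therefore called skin libraries here. The part of cell mixture in the results was not tested, and that of probe background is given where it was subtracted.

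**Figure D1:**
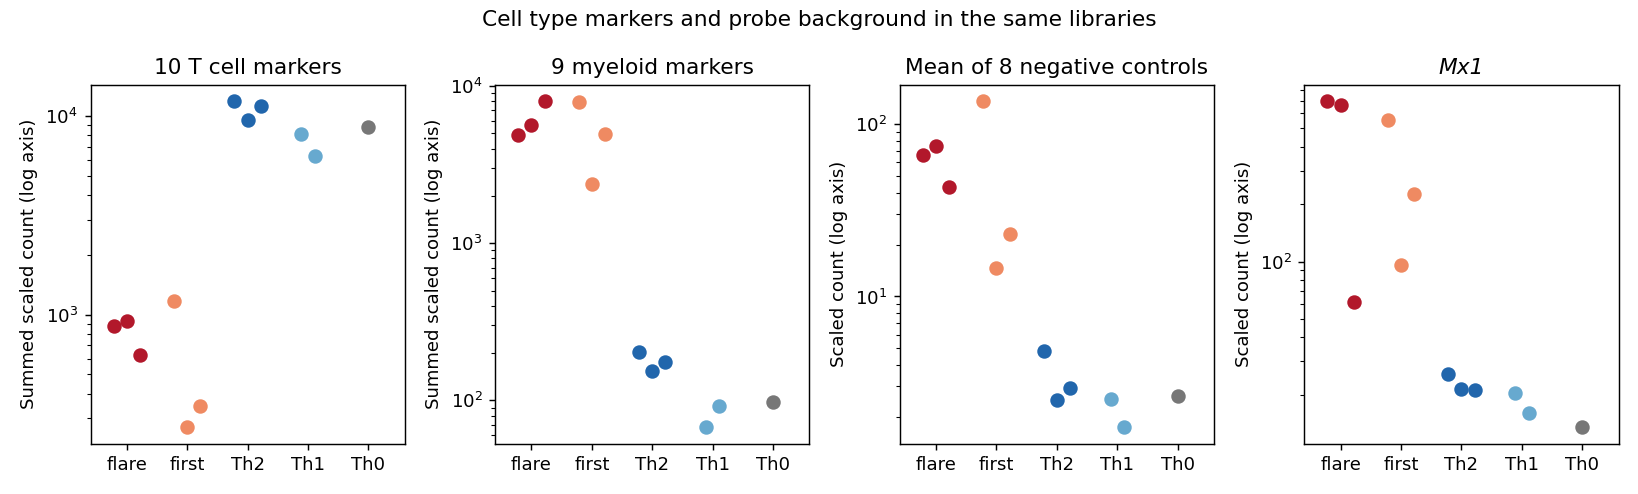
Summed scaled counts of 10 T cell markers and of 9 myeloid markers, the mean scaled count of the 8 negative controls, and the scaled count of Mx1, each on a log axis, with 1 point per library for flare, first, Th2, Th1 and Th0. The 6 skin libraries sit below all cultures for T cell markers and above all cultures in the other 3 panels.

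Mx1 and Ifih1 were the members most clearly higher in skin. Both rose in flare and in first lesions over Th2 cultures and in skin over Th1 cultures, by 2.94 to 4.36 on the log2 scale. Mx1 passed in 53 of 53 alternative settings of these 3 comparisons, with log2 fold changes from 1.68 to 8.68, and Ifih1 in 49 of 53, from 0.45 to 8.14. Bst2, Ifit2 and Ifitm1 passed in some of the comparisons and depended on the scaling. Ifi35 and Irgm1 passed in none when all libraries of a comparison were scaled by the housekeeping genes. In such bulk libraries fewer cells of a type and less RNA per cell cannot be told apart.

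Many genes of the panel passed in the comparisons of skin with cultures, so the members' counts stand beside those of all genes tested. At flare over Th2, 5 of the 7 members tested were higher and 0 lower, while 51.4% of 403 genes were higher and 21.6% lower, and the median log2 fold change was 1.64 over the members and 1.03 over all genes. Over Th2 in first lesions, 3 of 7 were higher, against 37.3% of 397 genes higher and 22.4% lower, with medians of 1.44 and 0.57. In skin over Th1, 5 of 8 were higher, against 50.6% of 429 genes higher and 14.2% lower, with medians of 1.91 and 1.46. In Th2 over Th1, 0 of 7 were higher and 1 was lower, against 27.8% of 400 genes higher and 4.5% lower, with medians of 0.39 and 0.58. With TMM factors the split of higher and lower calls over all genes was 111 and 192 at flare over Th2 in place of 207 and 87, 103 and 179 in first lesions over Th2 in place of 148 and 89, 130 and 207 in skin over Th1 in place of 217 and 61, and 33 and 31 in Th2 over Th1 in place of 111 and 18. Among the members that scaling gave 2 higher (Mx1 and Ifih1) and 2 lower (Ifi35 and Irgm1) both at flare and in first lesions over Th2, and 2 higher (Mx1 and Ifi204) and 3 lower (Ifi35, Ifitm1 and Irgm1) in skin over Th1. The medians of all genes then became -0.73, -0.74, -0.68 and -0.0048 in these comparisons, so a fold change is read here against the housekeeping genes.

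**Figure D2:**
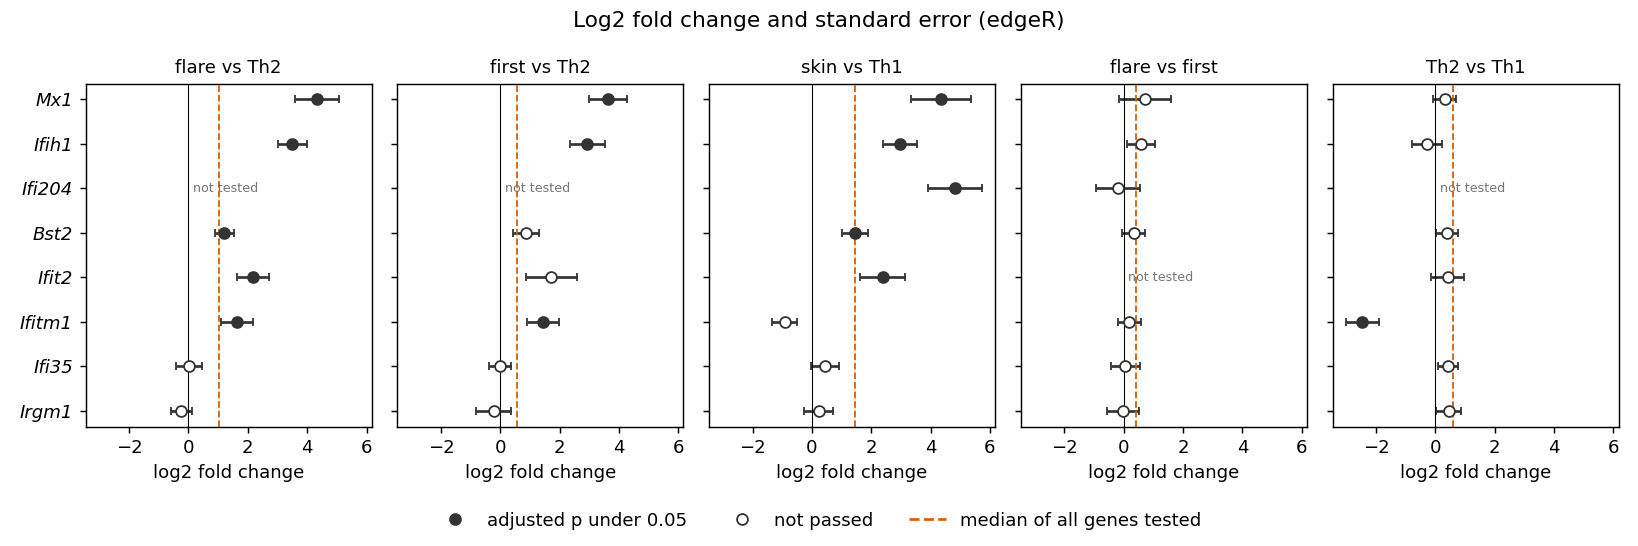
Log2 fold change of each member in 5 comparisons, as point and standard error from edgeR, filled where the adjusted p was under 0.05, with the median of all genes tested as a dashed line. Mx1 and Ifih1 lie right of the dashed line in all 3 comparisons of skin with cultures, at 2.94 to 4.36, and only Ifitm1 is filled in Th2 vs Th1, at -2.46.

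Mx1 stood at 695, 662 and 61.1 scaled counts at flare in mice 1, 2 and 12. At first lesions it was 552, 95.8 and 226 in mice 1, 3 and 6. Th2 cultures had 25.7, 21.3 and 21.2, Th1 cultures 20.4 and 16.0, and the Th0 culture 13.5. Every skin library lay above every culture, but mouse 12 at flare lay below its own detection limit, with 19 counts. Its negative controls alone averaged 43.0 scaled counts, and after their subtraction Mx1 was at 18.1 there, against 588 to 628 in the other flare libraries, 81.1 to 416 at first lesions and 19.3 ± 1.38 in Th2 cultures (SD, n = 3). The gap between skin and cultures was therefore carried by 5 of the 6 skin libraries, those of experiment 1, and experiment 2 had a single skin library. Mice 1 and 2 at flare stood above all 3 first libraries, whereas mouse 12 stood below them.

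The log2 fold change of Mx1 was 4.34 at flare over Th2 (standard error 0.74, edgeR adjusted p = 0.000516). First lesions over Th2 gave 3.63 (standard error 0.64, adjusted p = 0.00104), and the value was 4.36 in skin over Th1 (standard error 1.01, adjusted p = 0.00212). Within experiment 1 the log2 ratio of flare to Th2 was 4.72, and within experiment 2 it was 1.52. The second ratio rests on mouse 12 alone, which lay below its limit. Net of background Mx1 was at 18.1 there, against 18.8 and 18.3 in the Th2 cultures of experiment 2. With background subtracted, limma gave 3.22 at flare (adjusted p = 0.0458), 3.24 in first lesions (adjusted p = 0.00114) and 3.45 in skin over Th1 (adjusted p = 0.0184). Raw counts of Mx1 were 19 to 192 in skin and 53 to 92 in cultures, so the difference appears once the libraries are brought to a common scale.

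Ifih1 varied less between skin libraries than Mx1, although it passed in fewer of the alternative settings. Flare libraries had 386, 221 and 209 scaled counts in mice 1, 2 and 12, and first libraries 276, 105 and 174 in mice 1, 3 and 6. Th2 cultures had 40.3, 16.9 and 13.8, Th1 cultures 28.8 and 28.9, and the Th0 culture 20.3. It was above the limit in all 12 libraries and no skin library overlapped a culture. After background subtraction the lowest skin library still had 90.4 and the mean was 211 ± 94.7 at flare and 127 ± 32.3 at first lesions, against 20.2 ± 13.3 in Th2 cultures (SD, n = 3 each).

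The log2 fold change of Ifih1 was 3.50 at flare over Th2 (standard error 0.48, adjusted p = 0.000112). First lesions over Th2 gave 2.94 (standard error 0.59, adjusted p = 0.00223), and skin over Th1 gave 2.96 (standard error 0.57, adjusted p = 0.000553). The log2 ratio of flare to Th2 was 2.91 in experiment 1 and 3.77 in experiment 2. Over Th2 in first lesions the call was lost with experiment as a replicate block (2.17, adjusted p = 0.0588), a fit that leaves only the Th2 culture of experiment 1 to be set against the first libraries. Experiment 1 alone, with that same Th2 culture, also gave 2.17. In skin over Th1 it was lost with TMM factors (0.67, adjusted p = 0.109) and with DESeq2 size factors (0.45, adjusted p = 0.274).

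Ifi204, the other sensor, was at 116, 80.3 and 93.2 scaled counts at flare in mice 1, 2 and 12, and at 276, 38.6 and 51.8 at first lesions in mice 1, 3 and 6. It was at 3.82 to 4.47 in Th2 cultures, at 3.33 and 3.92 in Th1 cultures and at 3.30 in the Th0 culture. Only 1 of 3 flare libraries, 2 of 3 first libraries and 1 Th1 culture were above their limits, too few for a test against Th2. In skin over Th1 its log2 fold change was 4.82 (standard error 0.91) and passed, while the negative controls differed by 4.80 in the same direction. The skin libraries alone were enough to admit Ifi204 to that test. The 1 Th1 culture above its limit had 22 counts, against a limit of 21.7, so the Th1 level lay near background. With background subtracted the log2 fold change was 3.55, on net levels of 5.85 to 140 in skin against a mean of 1.48 ± 0.994 in Th1 cultures (SD, n = 2).

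**Figure D3:**
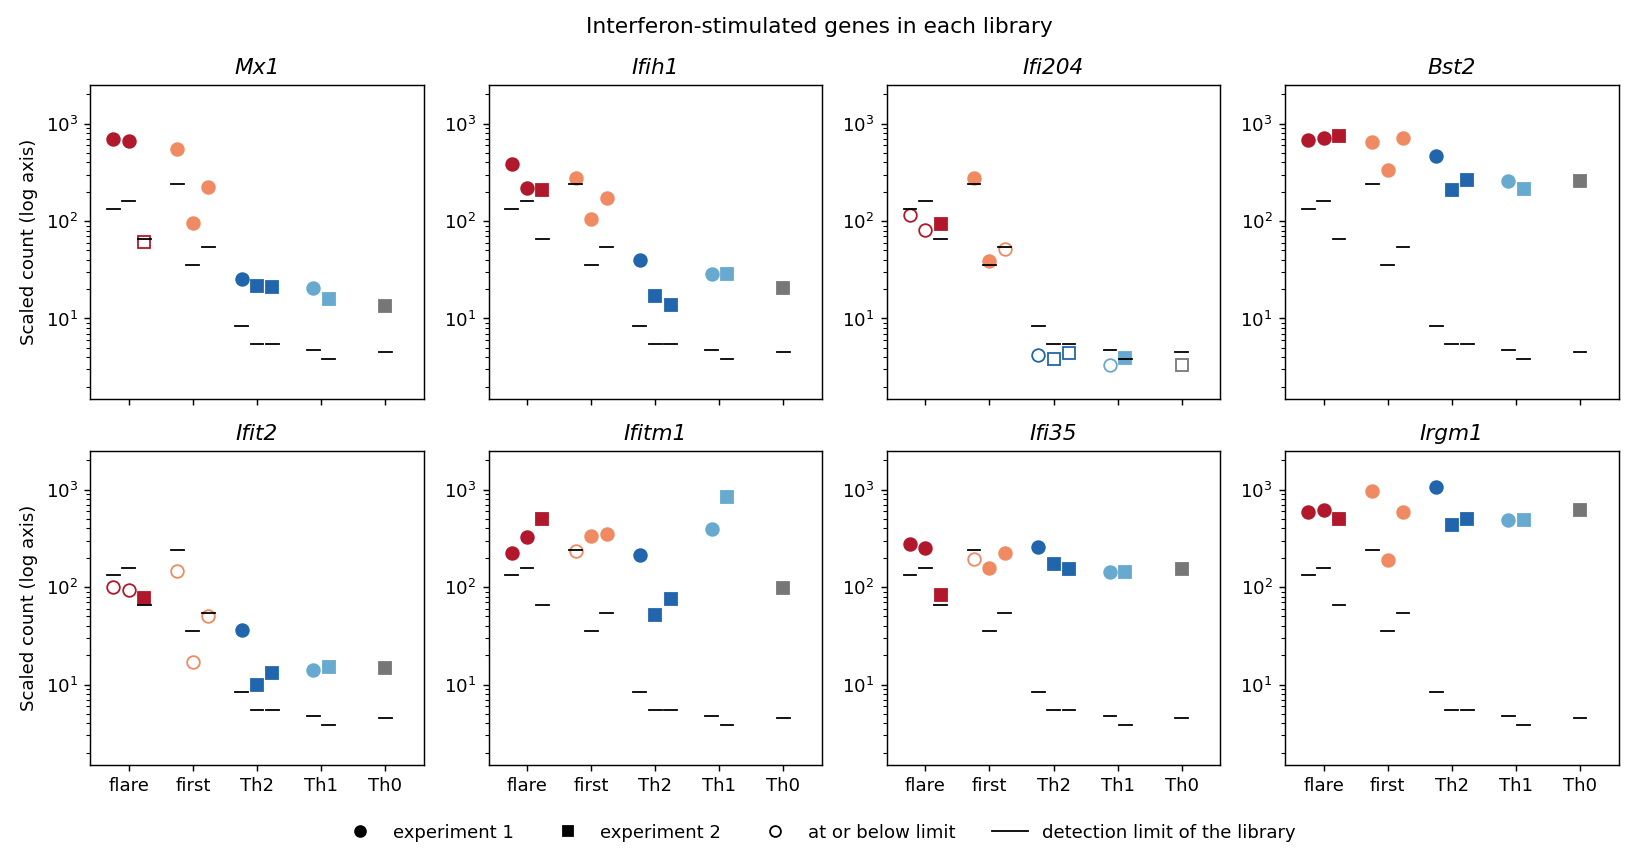
Scaled counts of the 8 genes on a log axis, 1 point per library, for flare, first, Th2, Th1 and Th0. Circles are experiment 1, squares experiment 2, open symbols lie at or below the limit and black dashes are each library's limit. Mx1 and Ifih1 lie above all cultures in all 6 skin libraries, Mx1 of mouse 12 is open at 61.1, and Irgm1 and Ifi35 overlap between skin and cultures.

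Bst2, which acts at the cell surface, was above the limit in every library. Flare libraries had 687, 709 and 756 scaled counts in mice 1, 2 and 12, and first libraries 653, 338 and 718 in mice 1, 3 and 6. Th2 cultures had 461, 207 and 265, Th1 cultures 261 and 213, and the Th0 culture 258. All flare libraries stood above all cultures, while mouse 3 at first lesions fell among the Th2 values. Bst2 was higher at flare over Th2 by 1.21 on the log2 scale (standard error 0.33, adjusted p = 0.00784), a value near the median of all tested genes (1.03). The value in first lesions over Th2 was 0.87 (standard error 0.43, adjusted p = 0.109), and in skin over Th1 it was higher by 1.44 (standard error 0.44, adjusted p = 0.0106). The sign turned with TMM factors, to -0.52 at flare over Th2 (adjusted p = 0.162) and -0.76 in skin over Th1 (adjusted p = 0.108), and with DESeq2 size factors, to -0.68 (adjusted p = 0.0883) and -0.97 (adjusted p = 0.0418). In experiment 1 alone the call at flare over Th2 was lost (0.60, adjusted p = 0.0670), and with background subtracted that in skin over Th1 was lost (1.27, adjusted p = 0.0544). Without mouse 3 the first lesion value passed (1.14, adjusted p = 0.0336), as it did without the Th2 culture of experiment 1 (1.27, adjusted p = 0.0490), and without the Th1 culture of experiment 2 the call in skin over Th1 was lost (1.30, adjusted p = 0.0900).

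Ifit2 could barely be measured in skin. It stood at 100, 93.7 and 77.2 scaled counts at flare in mice 1, 2 and 12, and at 145, 17.0 and 50.7 at first lesions in mice 1, 3 and 6, and only mouse 12 was above its limit. Th2 cultures had 36.0, 9.86 and 13.0, Th1 cultures 14.2 and 15.1, and the Th0 culture 14.7, all above the limit. The log2 fold change at flare over Th2 was 2.18 (standard error 0.53, adjusted p = 0.00434) and in skin over Th1 2.38 (standard error 0.76, adjusted p = 0.0136). The value in first lesions over Th2 was 1.72 (standard error 0.86, adjusted p = 0.113). With background subtracted these were 0.99 (adjusted p = 0.133), 0.34 (adjusted p = 0.735) and -0.56 (adjusted p = 0.566), and none passed. At flare over Th2 the call was also lost with TMM factors (0.47, adjusted p = 0.380). Without either Th1 culture the call in skin over Th1 was lost (adjusted p = 0.0832 to 0.0949), and without mouse 3 the first lesion value passed (2.22, adjusted p = 0.0315).

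Ifitm1 was the 1 member that differed between the cultures, and it was lower in Th2. Th2 cultures had 214, 52.1 and 74.9 scaled counts, against 398 and 852 in Th1 cultures, and the Th0 culture had 97.3, within the Th2 values. The log2 fold change in Th2 over Th1 was -2.46 (standard error 0.57, adjusted p = 0.0133), with no overlap and a log2 ratio of -0.90 in experiment 1 and -3.75 in experiment 2. It passed in 14 of 15 alternative settings, from -3.52 to -1.81, and under all the other scalings. Without the Th1 culture of experiment 2 it was -1.81 (adjusted p = 0.0626).

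In skin, Ifitm1 lay between the cultured states. Flare libraries had 224, 328 and 495 scaled counts in mice 1, 2 and 12, and first libraries 232, 332 and 352 in mice 1, 3 and 6. All of them exceeded the Th2 cultures, and mouse 12 alone exceeded the lower Th1 culture, but mouse 1 at first lesions was below its limit. Net of background, mouse 1 had 157 at flare and 96.2 at first lesions, both under the Th2 culture of experiment 1 (209). Ifitm1 was higher over Th2 on the log2 scale, by 1.64 at flare (standard error 0.53, adjusted p = 0.0188) and by 1.44 in first lesions (standard error 0.53, adjusted p = 0.0420). With DESeq2 size factors the value at flare turned to -0.16 (adjusted p = 0.801) and with TMM factors to -0.0098 (adjusted p = 0.988). Leaving out mouse 12 (1.29, adjusted p = 0.0731) or the female Th2 culture (1.41, adjusted p = 0.0578) also ended the call at flare, as did experiment 1 alone (0.38, adjusted p = 0.356) and background subtraction (1.51, adjusted p = 0.0561). The first lesion call was held in 8 of 17 alternative settings. It was lost with TMM factors (0.38, adjusted p = 0.541) and with DESeq2 size factors (0.34, adjusted p = 0.591). It was also lost with experiment as a replicate block (0.53, adjusted p = 0.477) and with background subtracted (1.24, adjusted p = 0.146). The same held without mouse 3 (1.39), mouse 6 (1.33), the male Th2 culture (1.09) or the female one (1.21). Experiment 1 alone, with 1 Th2 culture, gave 0.53. In skin over Th1 the log2 fold change was -0.92 (standard error 0.42, adjusted p = 0.0659), and it passed as lower with total endogenous counts (-1.85, adjusted p = 0.00214) and TMM factors (-3.03, adjusted p = 2.18e-05).

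Ifi35 and Irgm1 gave no call in the 5 comparisons when all their libraries were scaled by the housekeeping genes. Ifi35 was at 278, 254 and 83.6 scaled counts at flare in mice 1, 2 and 12, at 196, 158 and 226 at first lesions in mice 1, 3 and 6, at 258, 171 and 153 in Th2 cultures, at 144 in both Th1 cultures and at 153 in the Th0 culture. Irgm1 was at 594, 616 and 498 at flare, at 980, 192 and 586 at first lesions, at 1075, 439 and 495 in Th2 cultures, at 491 and 494 in Th1 cultures and at 620 in the Th0 culture. The groups overlapped in each skin comparison, and mouse 12 at flare had the lowest Ifi35 of all libraries. At flare over Th2 the log2 fold changes were 0.03 for Ifi35 (standard error 0.43, adjusted p = 0.956) and -0.24 for Irgm1 (standard error 0.37, adjusted p = 0.588). With DESeq2 size factors both passed as lower, at -1.97 (adjusted p = 0.000617) and -2.15 (adjusted p = 0.000285), and in first lesions over Th2 likewise, at -1.26 (adjusted p = 0.0100) and -1.77 (adjusted p = 0.00252). Within experiment 1 alone, housekeeping scaling kept, Irgm1 was lower at flare over Th2 (-0.83, adjusted p = 0.0229). When all libraries were scaled by the housekeeping genes, Irgm1 had no call and Ifih1 was called in all 3 comparisons of skin with cultures. Both hold the same motif core in the windows printed above, and a link between motif and level was not tested.

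No member differed past the threshold between flare and first lesions. None of the 7 tested passed, and neither did any of the 277 genes (0% higher and 0% lower), although 29 genes had an unadjusted p under 0.05 and DESeq2's Wald test called 9, none of them a member. Mx1 averaged 473 ± 357 scaled counts at flare and 291 ± 235 at first lesions (SD, n = 3 each), and its log2 fold change was 0.72 (standard error 0.87, adjusted p = 0.733). Ifih1 averaged 272 ± 98.9 at flare and 185 ± 85.9 at first lesions, and Bst2 717 ± 35.0 at flare and 570 ± 203 at first lesions. The other log2 fold changes ran from -0.20 for Ifi204 to 0.58 for Ifih1, with standard errors of 0.38 to 0.74. Mouse number 1 of experiment 1 appears at both stages, and whether this was 1 animal sampled at each stage is not stated. Its Mx1 was 695 at flare and 552 at first lesions, and its Ifih1 386 at flare and 276 at first lesions.

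**Figure D4:**
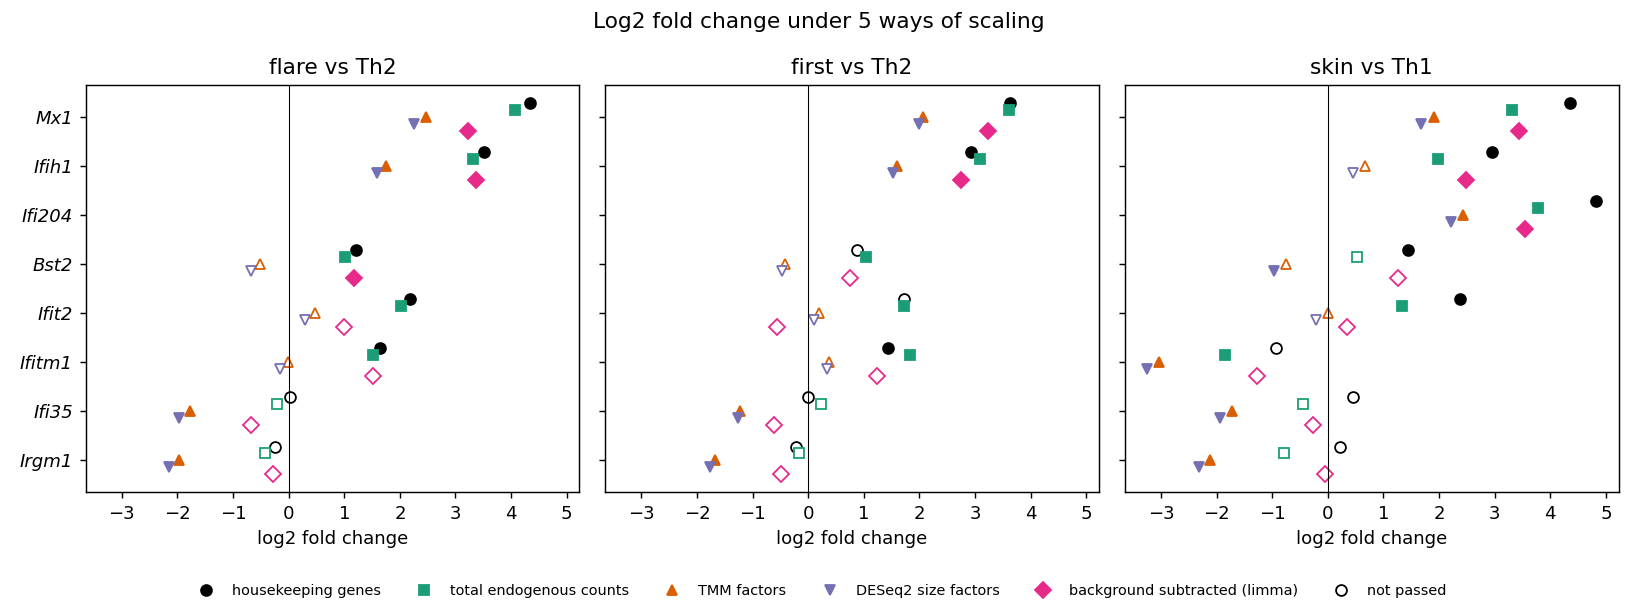
Log2 fold change of each member at flare over Th2, in first lesions over Th2 and in skin over Th1 under 5 treatments of the counts (housekeeping genes, total endogenous counts, TMM factors, DESeq2 size factors and background subtraction with limma), filled where the adjusted p was under 0.05. Mx1 stays right of 0 and filled throughout, whereas Bst2 moves from 1.21 to -0.68 at flare over Th2 and of the 5 values of Irgm1 there those at -1.98 and -2.15 are filled.

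Of the ligands and receptors upstream, 10 of the list were on the panel and 5 could be tested in each comparison. Ifnb1, Ifna2 and Ifng were above the limit in 0 of 6 skin libraries, and Ifna1 in 1 of 6, so their levels in skin are bounded by the limit only. Ifngr2, a chain of the IFNγ receptor, was at 214 ± 21.7 scaled counts at flare, 242 ± 54.2 at first lesions and 109 ± 5.11 in Th2 cultures (SD, n = 3 each). It rose by 0.97 at flare and 1.14 in first lesions over Th2, and by 1.38 in Th2 over Th1, but with TMM factors the first of these was -0.80 (adjusted p = 0.0110) the second -0.13 (adjusted p = 0.704) and the third 0.83 (adjusted p = 0.111). Ifnar2, a chain of the type I receptor, was higher at flare over Th2 by 1.24 and turned to -0.70 with DESeq2 size factors. Of the list, 2 of 5 genes were higher there, against 51.4% of all genes tested. Ifngr1, the ligand-binding chain for IFNγ, averaged 431 scaled counts at first lesions and 859 in Th2 cultures and was lower (adjusted p = 0.0490). That call was lost with background subtracted (-1.21, adjusted p = 0.0595) and held with TMM factors (-2.32, adjusted p = 0.000135), while Cd3 chain genes gave 4.29. In first lesions over Th2, 1 of the 5 was higher and 1 lower, against 37.3% and 22.4% of all genes tested.

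Of 9 sensor and adaptor genes on the panel 7 were tested in each comparison with a culture. Those higher were Tbk1 and Tlr9 at flare over Th2, Tbk1, Tlr8 and Traf3 in skin over Th1, and Tlr9 and Traf3 in Th2 over Th1, with 0 of 7 in first lesions over Th2 and 0 lower in each. Of all genes tested, 51.4% were higher and 21.6% lower at flare over Th2, and 50.6% and 14.2% in skin over Th1. The shares were 27.8% and 4.5% in Th2 over Th1, and 37.3% and 22.4% in first lesions over Th2. Tlr8, an endosomal RNA sensor, averaged 125 scaled counts in skin, where 2 of 6 libraries exceeded their limit, and neither Th1 culture exceeded its own. Tlr8 thus entered the test through skin libraries alone. Negative controls differed by 4.80 on the log2 scale in the same direction, and with background subtracted the log2 fold change of Tlr8 was 4.83. Tlr9 was above the limit in 0 of 6 skin libraries, whose recipients lacked it, and in all 3 Th2 cultures at 16.0 ± 4.85 (SD, n = 3), so its call at flare rests on skin values below the limit. Tbk1, a kinase that activates Irf3, rose by 1.49 at flare over Th2 and was at -0.26 with TMM factors.

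Among the 12 transducers and interferon regulatory factors, 4 were higher and 4 lower at flare over Th2, 3 higher and 2 lower in first lesions over Th2, 4 higher and 2 lower in skin over Th1, and 2 higher and 0 lower in Th2 over Th1. Shares of all genes tested were 51.4% higher and 21.6% lower at flare over Th2, and 37.3% and 22.4% in first lesions over Th2. They were 50.6% and 14.2% in skin over Th1, and 27.8% and 4.5% in Th2 over Th1. Irf3, which switches on interferon genes downstream of the sensors, averaged 146 scaled counts at flare and 121 at first lesions, against 13.3 in Th2 cultures, and was above the limit in 1 of 3 flare and 3 of 3 first libraries. It rose by 3.40 and 3.09 at these stages and stayed called with TMM factors (1.61 and 1.55). Irf5 rose by 2.20 at flare and 2.72 in first lesions over Th2, and only the second held with TMM factors (1.18, adjusted p = 0.00801). At flare Irf5 was above the limit in 1 of 3 libraries, and its call was lost with background subtracted (0.99, adjusted p = 0.262). Socs1, which restrains JAK signaling, was lower over Th2, with log2 fold changes of -4.12 at flare and -4.03 in first lesions, where 1 of 3 flare and 2 of 3 first libraries were above the limit, and it was higher in Th2 over Th1 by 1.55, which did not pass with TMM factors (0.99, adjusted p = 0.0527). Stat2 was below the limit in all 3 flare libraries. Scaled by Cd3 chain genes instead, Socs1 turned to 0.47 at flare, but in skin Cd3e was above the limit in 0, Cd3d in 1 and Cd247 in 2 of 6 libraries.

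The interferon-gamma-inducible list gave 3 higher of 9 tested at flare over Th2, 3 of 10 in first lesions over Th2, 4 of 9 in skin over Th1 and 1 of 9 in Th2 over Th1, with 0 lower in each. Over all genes tested, 51.4% were higher and 21.6% lower at flare over Th2, and 37.3% and 22.4% in first lesions over Th2. The shares were 50.6% and 14.2% in skin over Th1, and 27.8% and 4.5% in Th2 over Th1. Cxcl9, a chemokine for Cxcr3-bearing T cells, averaged 93.7 scaled counts at flare and 241 at first lesions, against 9.18 in Th2 cultures, with 1 of 3 flare and 3 of 3 first libraries above the limit. It rose by 3.32 and 4.66 at these stages, and by 1.57 and 3.12 with TMM factors. Cxcl10, of the same family, was at 207 at first lesions, with 3 of 3 libraries above the limit, and below it in every Th2 culture. Cxcl10 thus entered the test through the first libraries alone. Negative controls differed by 4.09 on the log2 scale in the same direction, and with background subtracted the log2 fold change of Cxcl10 was 6.74. Cd274, the ligand of PD-1, rose by 1.93 at flare over Th2 and was at 0.25 with TMM factors (adjusted p = 0.591). Ciita, the regulator of MHC class II genes, was the 1 gene of this list higher in Th2 over Th1, by 1.69, and that call was lost with TMM factors (1.01, adjusted p = 0.310) and with background subtracted (adjusted p = 0.0855). Medians of the 4 lists ran from 0.34 to 0.48 at flare over Th2, against 1.03 over all genes, from -0.13 to 0.70 in first lesions over Th2, against 0.57, from 0.46 to 1.00 in skin over Th1, against 1.46, and from 0.37 to 0.93 in Th2 over Th1, against 0.58.

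Over the 12 libraries Mx1, Ifih1, Bst2, Ifit2 and Ifi204 followed the mean of the other members with Pearson r of 0.90, 0.97, 0.92, 0.95 and 0.91, while Ifitm1, Ifi35 and Irgm1 had r of 0.32, 0.33 and 0.21. Genes whose profile was most like the members' mean among 377 genes included Ccrl2 (r = 0.970), Mbp (0.970), Il15ra (0.962) and Irf3 (0.962). The scaled mean of the negative controls had r = 0.966 with the same profile, so these values describe a contrast of skin with cultures that depth and background share. The myeloid markers Tyrobp and Cd14 averaged 2489 and 1006 scaled counts in skin, against 16.6 and 3.25 in Th2 cultures. Of the other cell types, Cd83 and Cd209g (dendritic) averaged 748 and 475 in skin, S100a8 and S100a9 (neutrophil) 780 and 507, Blnk and Btk (B cell) 201 and 76.7, Ncam1 and Klrc1 (NK cell) 180 and 53.2, Fcer1a and Kit (mast cell) 79.2 and 45.3, and Fn1 (stromal list) 336. Thy1, of the same list but also made by T cells, was at 200.3 in skin, against 3814 in Th2 and 1949 in Th1 cultures, and the summed stromal list was 459 to 1054 in skin, against 1607 to 5746 in cultures. Klrc1 and Kit were above the limit in 0 of 6 skin libraries, and Btk and Fcer1a in 1 each.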

How the data were processed

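RNA was counted with NanoString probes after hybridization of extracts from cultured and skin-derived T cells. The authors deposited raw digital counts per probe, with no scaling step stated, covering 547 endogenous and 14 housekeeping genes, with 6 positive and 8 negative control probes. The NanoString methods name CD3 columns for enrichment from skin, whereas the study's text elsewhere names KJ1-26 beads. No extra columns were left unmapped, and no pair of libraries was identical.

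To obtain scaled counts, each library was divided by its geometric mean over 7 housekeeping genes, those that exceeded the limit (mean plus 2 SDs of the negative controls) in all libraries. A gene was tested where the number of compared libraries above the limit reached the size of the smaller group, with edgeR 4.0.16 (quasi-likelihood, R 4.3.3), with this scaling as an offset and Benjamini-Hochberg adjustment over all genes tested, at a threshold of 0.05. Standard errors were derived from the F statistic. Background subtraction removed the negative control mean before scaling, and limma 3.58.1 tested log2 scaled counts with a pseudocount of 1. The tests were also run on simulated counts with a fixed dispersion and no separate probe background. That run cannot speak to the background or the spread of the skin libraries. Not all cultures are stated to come from separate animals, so p-values measure the spread between these libraries. The comparisons share Th2 or skin libraries and are not independent.

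Alternatives were TMM factors, DESeq2 1.42.0 size factors, total endogenous counts, Cd3 chain genes, no filter, DESeq2's Wald test, limma with and without background subtraction, 1 fit of all 12 libraries, experiment as a replicate block, experiment 1 alone and each library left out. Experiment numbers come from the labels, and deviations of Th1 and Th2 cultures of the same experiment correlated (r = 0.177 over 400 genes). The members and gene lists were chosen with earlier results of these data known. Named genes were all 8 members, per comparison and pathway list up to 2 genes with the largest change each way among those that passed without overlap, 5 genes most like the members over libraries, and up to 2 genes per marker list with the highest skin level. Some genes that this rule names are not reported here. The lists of tested names, the interferon genes below the limit, Stat2, Traf3 and the T cell and myeloid markers counted against the limit lie partly outside this rule, and their values had been seen before they were picked. Promoter sequences are from RefSeq (GRCm38.p6). Of the members' probes 7 of 8 matched its annotation by accession, and that of Mx1 had no match.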

Additional observations from a re-analysis of the deposited data

Results flagged for a closer look

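Within the 6 skin libraries, 2 members had a library far from the others. Bst2 was at 338 scaled counts in mouse 3 at first lesions, above its limit, against 653 to 756 in the other 5 libraries, a gap of 0.755 of the whole range. Ifi204 was at 276 in mouse 1 at first lesions, against 38.6 to 116 in the others, a gap of 0.675 of the range, in the library with the highest negative controls (136 scaled counts). Chance flags about 1 in 20 such groups, and 8 genes were looked at.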

How the results depend on the processing

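The number of members called was within 1.5 times under most alternatives, but not always for the same genes. With TMM factors and with DESeq2 size factors 2 members were higher and 2 lower (Ifi35 and Irgm1) in first lesions over Th2, in place of 3 and 0, and at flare over Th2, in place of 5 and 0. The lower values in first lesions were -1.22 and -1.68 with TMM factors. In first lesions over Th2 it was 3, and became 5 with total endogenous counts, 7 with the Cd3 chain genes and 1 when experiment was fitted as replicate block. It was 5 at flare over Th2, and became 3 with background subtracted. In skin over Th1 it was 5, and became 8 with the Cd3 chain genes and 3 both with background subtracted and in experiment 1 alone. With each library left out in turn it ran from 0 to 1 in Th2 over Th1, 3 to 5 in first lesions over Th2, 4 to 5 at flare over Th2, 0 to 0 at flare over first lesions and 3 to 6 in skin over Th1. Without the Th1 culture of experiment 2 it was 0 in Th2 over Th1 and 3 in skin over Th1, and without the Th2 culture of experiment 1 it was 5 in first lesions over Th2. The replicate block changed the call of Ifih1 and Ifitm1 in first lesions over Th2 and of no other member. Experiment 1 alone could not be fitted in Th2 over Th1, which has 1 library a side there.

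Signs turned in 17 cases where the value was called in either fit. With TMM factors Bst2 was -0.52, Ifi35 -1.78 and Ifitm1 -0.0098 at flare over Th2, and Bst2 -0.76, Ifi35 -1.72 and Irgm1 -2.11 in skin over Th1. With DESeq2 size factors Bst2 was -0.68, Ifi35 -1.97 and Ifitm1 -0.16 at flare over Th2, and Bst2 -0.97, Ifi35 -1.94, Ifit2 -0.21 and Irgm1 -2.32 in skin over Th1. With the Cd3 chain genes, whose geometric mean was 10.8 to 30.2 counts in skin, Ifi35 was 5.42 and Irgm1 4.79 in first lesions over Th2, Irgm1 4.35 at flare over Th2 and Ifitm1 3.35 in skin over Th1. In 74 further cases of 614 a sign changed with no call in either fit. The cause was not tested.

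Calls over all genes in Th2 over Th1 were 129, and 64 with TMM factors and with DESeq2 size factors (32 higher and 32 lower), 76 with total endogenous counts (23 and 53), 70 with Cd3 chain genes (31 and 39) and 49 with all 12 libraries in 1 fit. Leaving out a library gave 58 to 137, with 58 without the female Th2 culture and 75 without the Th1 culture of experiment 2. In first lesions over Th2 they were 237, and 382 with Cd3 chain genes (377 higher and 5 lower) and 152 in experiment 1 alone. Background subtraction gave 101 higher and 140 lower there, 153 and 133 at flare over Th2, and 153 and 100 in skin over Th1. DESeq2 size factors gave 103 and 184, 103 and 203, and 120 and 216 in these 3 comparisons. Total endogenous counts gave 191 and 109 in skin over Th1, and Cd3 chain genes 381 and 7 at flare over Th2 and 412 and 3 in skin over Th1.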
